A study of Mus musculus with 14 samples.

Results

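The genes that encode the spliceosome and its main accessory factors were examined as targets of 2 chromatin proteins with opposite activities on histone H2A, RNF2 and BAP1. The set was drawn by symbol from a RefSeq table of mouse assembly GRCm38.p6. It takes the Srsf, Sf3a, Sf3b, Prpf, U2af and Snrpa to Snrpg genes (without Snrpn), together with Slu7, Syf2, Cwc22, Cwc15, Cdc5l and Bcas2. The rule found 53 of 21779 protein-coding genes. Symbols alone decide membership, but the set was proposed with results of these data in view, so its values are given as a description and carry no test.

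RNF2 and BAP1 had been mapped by chromatin immunoprecipitation and sequencing (ChIP-seq) in mouse embryonic stem (ES) cells on a C57BL/6 background, labelled with an embryonic age of 3.5 to 4.5 days. RNF2 ChIP had been made in 2 libraries of BAP1 knockout cells, 2 libraries of wild-type cells and 1 library of RNF2 knockout cells, with the Abcam antibody ab3832. BAP1 ChIP, with the Genentech antibody PRO424270, covered 1 library of BAP1 C91A cells and 1 library of BAP1 knockout cells. The series asks where the 2 proteins bind and how RNF2 binding differs without BAP1.

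Every cell, wild type included, had received 100 nM 4-hydroxytamoxifen and 10 µM of the caspase inhibitor emricasan for 4 days. C91A replaces the catalytic cysteine of BAP1, and the protocols describe these cells as Bap1 C91A/-, with the crosslinker disuccinimidyl glutarate added before nuclear extracts were made. They do not name this step for BAP1 knockout cells, so whether the control was crosslinked in the same way is not known. C91A cells and their control differ in genotype and depth together, which cannot be told apart. How the knockouts were made, the number of clones, and whether replicates came from separate cultures are not given in the sources used here. Differences between replicates may therefore be technical.

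The spliceosome is built on each intron from small nuclear ribonucleoproteins (snRNPs). U1 marks the 5′ splice site, U2 and the U2 auxiliary factor mark the branch point and the 3′ splice site, and the U4/U6.U5 tri-snRNP and the Prp19 complex then bring about catalysis. Genes for these proteins are active in nearly every cell type and mostly have CpG-rich promoters. RNF2 (RING1B) is the ubiquitin ligase subunit of Polycomb repressive complex 1, which in ES cells is known for its high occupancy of silent developmental genes. BAP1 is the deubiquitinase that removes the same mark from histone H2A.

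A gene was counted as occupied where a peak of a deposited list overlapped, by at least 1 bp, a window reaching 1 kb to each side of either gene end. Each list gives a fold enrichment per peak, the authors' own ratio over local background. Here it serves only to describe and rank peaks within a list. A gene's percentile is the share of the occupied genes of that list whose highest peak had a lower fold enrichment. The lists differ in length, so percentiles from different lists set side by side show no change in binding. After the authors' filtering the RNF2 libraries of BAP1 knockout cells held 54.1 and 139 M tags, and those of wild-type cells 58.4 and 149 M. The lists held 7946 and 39872 peaks for BAP1 knockout, 4038 and 28770 for wild type, 0 for RNF2 knockout, 2395 for BAP1 in C91A cells and 144 for BAP1 in BAP1 knockout cells. The second RNF2 libraries differ from the first in depth, caller version and fragment length at once, so genotypes were compared within each pair as well as over all 4 libraries. Peak lists hold no expression, and the ES cell label could be read only from occupancy. Of 8 ES cell marker genes, RNF2 peaks lay at 0 and 5 in BAP1 knockout and at 0 and 2 in wild type. Of 6 fibroblast genes they lay at 2 and 5 in both genotypes. All genes gave 23.2% and 57.7% in BAP1 knockout and 11.1% and 49.3% in wild type. The fibroblast genes were mixed in the second libraries. Col3a1 held no peak, Pdgfrb had percentiles of 25.9 (BAP1 knockout) and 6.7 (wild type), and Thy1 had 83.4 and 89.4. Lists this short do not settle the cell type. ChIP of a cell population cannot tell a protein bound in fewer cells from one bound more weakly in each.

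BAP1 peaks in C91A cells lay at 5 splicing genes, Slu7, Syf2, Snrpd3, Prpf18 and Cwc15, which is 9.43% of the 53. Across all protein-coding genes the share was 3.74% (814 genes). In BAP1 knockout cells the same antibody gave a peak at 0 of the 53, against 0.00459% of all genes, and that library held 32.5 M tags against 415 M in C91A cells. The promoters of the BAP1-bound splicing genes that have an annotated start in the RefSeq table are printed here, with that of Srsf12, the splicing gene with the highest RNF2 fold enrichment in 3 of the 4 RNF2 lists. Each runs 5′ to 3′ over 300 bases, from 250 before the start to 50 from the start on, on GRCm38.p6. Cwc15 lies at chr9:14500369-14500668 on the plus strand, Syf2 at chr4:134930730-134931029 (plus), Snrpd3 at chr10:75517792-75518091 (plus) and Srsf12 at chr4:33209022-33209321 (plus). Capitals mark the letters CCGGAAG, a core recognised by ETS-family factors, on either strand, so that a match on the minus strand reads CTTCCGG.
Cwc15: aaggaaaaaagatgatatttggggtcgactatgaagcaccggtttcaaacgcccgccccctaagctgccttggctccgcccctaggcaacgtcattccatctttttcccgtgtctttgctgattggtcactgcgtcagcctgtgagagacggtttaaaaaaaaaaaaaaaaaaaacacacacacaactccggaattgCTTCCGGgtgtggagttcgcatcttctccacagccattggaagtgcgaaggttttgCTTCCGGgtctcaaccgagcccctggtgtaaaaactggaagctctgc
Syf2: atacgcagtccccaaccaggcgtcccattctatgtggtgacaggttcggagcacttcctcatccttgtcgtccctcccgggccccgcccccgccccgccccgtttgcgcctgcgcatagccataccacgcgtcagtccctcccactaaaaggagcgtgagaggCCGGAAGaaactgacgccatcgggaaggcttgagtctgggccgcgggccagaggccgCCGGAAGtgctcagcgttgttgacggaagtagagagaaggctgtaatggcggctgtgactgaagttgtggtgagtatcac
Snrpd3: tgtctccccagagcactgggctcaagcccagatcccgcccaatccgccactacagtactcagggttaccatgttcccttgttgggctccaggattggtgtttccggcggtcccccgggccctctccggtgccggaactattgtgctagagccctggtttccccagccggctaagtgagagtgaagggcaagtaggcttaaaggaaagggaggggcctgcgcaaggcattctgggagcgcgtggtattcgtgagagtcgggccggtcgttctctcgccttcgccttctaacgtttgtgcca
Srsf12: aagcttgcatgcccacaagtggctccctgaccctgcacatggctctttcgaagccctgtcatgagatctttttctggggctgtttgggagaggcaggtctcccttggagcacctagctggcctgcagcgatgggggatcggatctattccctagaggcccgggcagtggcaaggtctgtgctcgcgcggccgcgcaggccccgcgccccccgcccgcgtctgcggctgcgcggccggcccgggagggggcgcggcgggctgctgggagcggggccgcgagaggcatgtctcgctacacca
The ETS letters stood 2 times in the Cwc15 promoter, on the minus strand with offsets of -53 and 3 bp from the start. They stood 2 times in the Syf2 promoter, on the plus strand at -87 and -30 bp, and neither in the Snrpd3 nor in the Srsf12 window.

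Slu7, which acts in the choice of the 3′ splice site at the second step of splicing, had the strongest of these BAP1 peaks. The peak at chr11:43433682-43434152 had a fold enrichment of 5.75, a −log10 q of 11.64 and the 99.4th percentile among BAP1-occupied genes. Syf2, a protein of the Prp19-related group, followed with 4.91 (−log10 q 8.40, percentile 94.8) in a 610 bp peak at chr4:134930875-134931484. Its summit lay 30 bp downstream of the annotated start, and the peak covers both ETS matches of the printed promoter. These 2 genes stood near the top of the BAP1 list. At a −log10 q of at least 5 they were the BAP1-occupied members left, and all genes then came to 0.992%. At a −log10 q of at least 10 Slu7 alone was left, among 20 genes in all.

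The other BAP1 peaks at splicing genes were lower. Against the 120 bp median length of all BAP1 peaks, the Cwc15 peak was shorter and the Snrpd3 and Prpf18 peaks were longer. Snrpd3, which encodes a protein of the Sm ring around snRNAs, had a fold enrichment of 3.91 (percentile 68.3) in a 138 bp peak at chr10:75517865-75518002. Its summit lay 90 bp upstream of the start, inside the printed promoter, and the peak also lies in the window of Gucd1. Prpf18, another second-step factor, had 3.84 (percentile 66.0) in a 234 bp peak at chr2:4651903-4652136, whose summit lay 70 bp from the gene's end in the table. Cwc15, a protein of the Prp19-related group, had 3.37 (percentile 30.8) in a 51 bp peak at chr9:14500686-14500736, which also counts for Kdm4d. Its summit lay 78 bp downstream of the start, just past the end of the printed window. Of the 5, 4 thus stood above the median of the BAP1 list, whose all-gene median was 3.60.

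RNF2 was listed at 3 of the 5 BAP1-bound splicing genes in the second BAP1 knockout library (60%; 92.3% of the 814 BAP1-occupied genes) and at 1 in the second wild-type library (20%; 82.7%). No wild-type RNF2 peak was listed at 4 of the 5 (80%), all but Snrpd3. Among the 814 BAP1-occupied genes none was listed at 141 (17.3%), which is 0.647% of all protein-coding genes. Cwc15 and Prpf18 held no RNF2 peak in any library, as did 48 of the 814 (5.9%, or 0.22% of all genes). At Slu7 and Syf2, RNF2 was listed in the second BAP1 knockout library only. The Slu7 peak had a fold enrichment of 3.33 (chr11:43433940-43434183) and the Syf2 peak 3.62 (chr4:134931064-134931303), and both overlapped the BAP1 peak. Snrpd3 held RNF2 at 3.56 in the second BAP1 knockout and 2.80 in the second wild-type library. That wild-type peak, at chr10:75516943-75517101, had its summit at -970 bp from the start (upstream) and did not overlap the BAP1 peak. With windows of 500 bp, or with RNF2 lists of equal length, all 5 genes lacked a wild-type RNF2 peak. Over all genes, wild-type peaks then lay at 10.1% and 46.5% (500 bp) and at 11.1% and 14.1% (equal length). With lists this short most genes lack a peak, and the share among BAP1-occupied genes was not computed for these settings. The nearest peak of the second wild-type library lay 26463 bp away from Slu7 and 6447 bp away from Syf2.

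**Figure D1:**
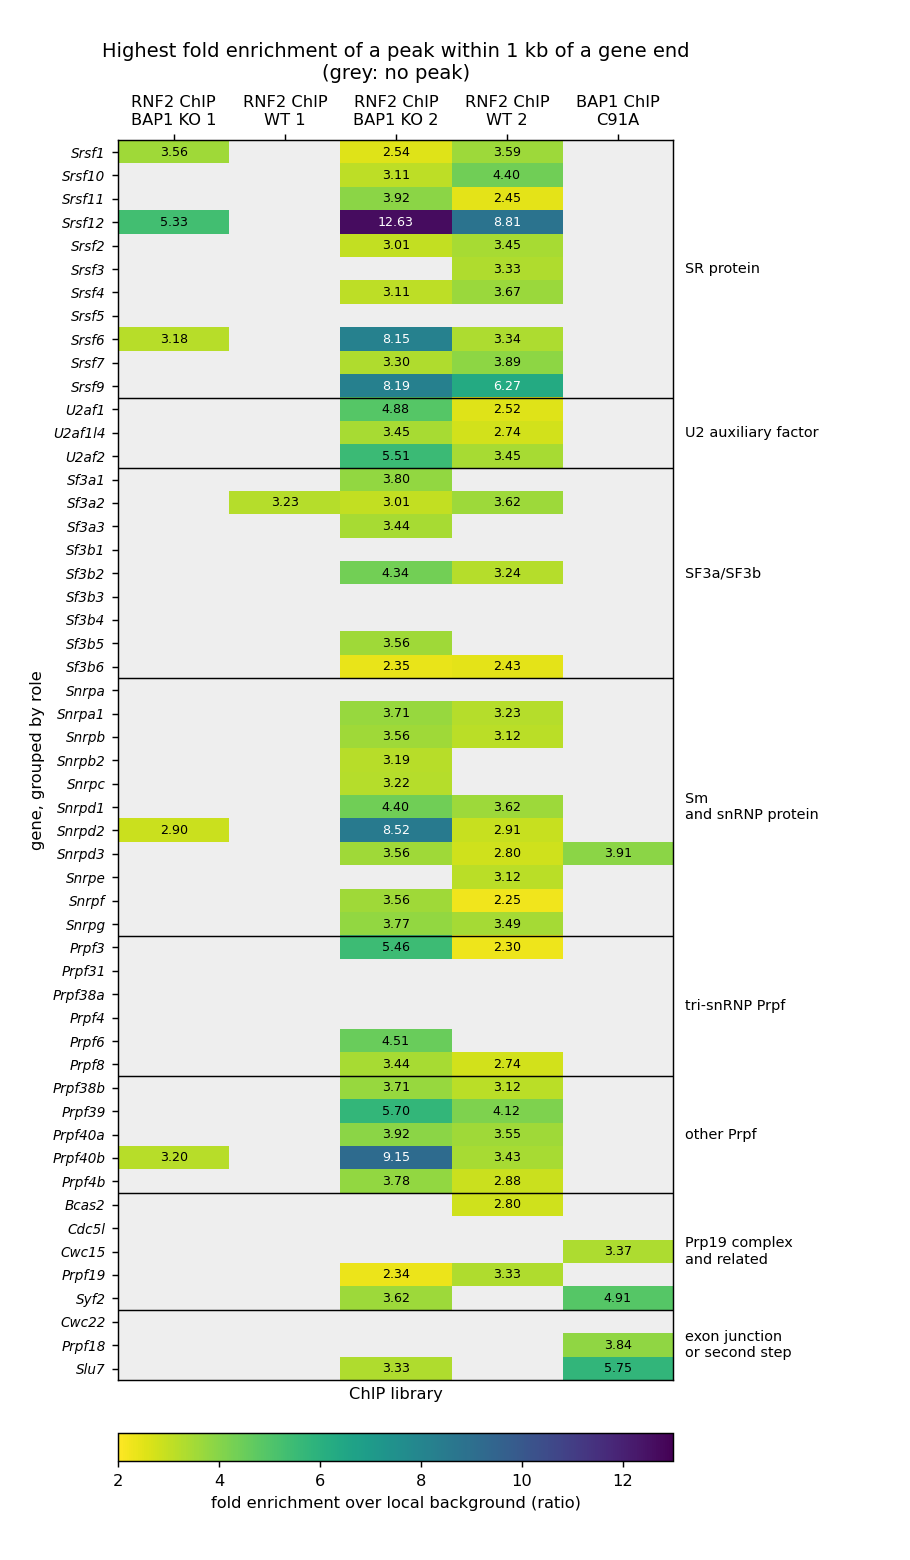
Highest fold enrichment (a ratio over local background, colour scale and printed values) of any peak within 1 kb of either end of each of the 53 splicing genes, by ChIP library, with genes grouped by role; grey means no peak. The second RNF2 libraries are filled for 38 genes (BAP1 knockout) and 33 genes (wild type), the first for 5 and 1, and the BAP1 column for 5. Colours compare genes within a column, not columns with each other.

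RNF2 lay at most splicing genes in the deep libraries and at almost none in the shallow ones. Peaks stood at 5 of the 53 genes in the first and 38 in the second BAP1 knockout library (9.43% and 71.7%), where all genes gave 23.2% and 57.7%. In wild type they stood at 1 and 33 genes (1.89% and 62.3%), where all genes gave 11.1% and 49.3%. The RNF2 knockout library listed none, for the splicing genes as for all genes (0%). The share of splicing genes was thus below that of all genes in the first libraries of both genotypes and above it in the second of both. At a −log10 q of at least 5 the second libraries stayed above all genes. The shares were 67.9% in BAP1 knockout (all genes 52.4%) and 47.2% in wild type (all genes 40.8%). At a −log10 q of at least 10 they turned to below all genes. The shares were then 24.5% in the second BAP1 knockout library (all genes 42.1%) and 11.3% in the second wild-type library (all genes 29.1%). RNF2 in both second libraries and neither first was found at 24 splicing genes (45.3%), against 24.6% of all genes. In all, 41 members held RNF2 in at least 1 library and 12 (22.6%) in none, against 41% of all genes.

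The peaks at splicing genes were weak for their lists. In the second BAP1 knockout library their fold enrichment ran from 2.34 to 12.63 with a median of 3.66, where all occupied genes had a median of 6.27, and 33 of the 38 genes stood below that median. In the second wild-type library it ran from 2.25 to 8.81 with a median of 3.33, where all occupied genes had 4.42, and 31 of 33 stood below it. The median percentiles were 23.4 in that BAP1 knockout library and 29.0 in that wild-type library. In the first libraries the 5 genes of BAP1 knockout had a median of 3.20 (all genes 5.59) and the single gene of wild type 3.23 (all genes 4.39). A fold enrichment of at least 5 was reached by 8 members in the second BAP1 knockout library and by 2, Srsf12 and Srsf9, in the second wild-type library. That cutoff lies below the all-gene median of the first of these lists (6.27) and above that of the other (4.42). The 2 counts therefore show no difference between genotypes, and the share of all genes reaching the cutoff was not computed. With all 4 RNF2 lists limited to their best 4038 peaks, 0 members were left in either BAP1 knockout library, and 1 was left in each wild-type library, Sf3a2 in the first and Srsf12 in the second. All genes then gave 13.5% and 15.1% in BAP1 knockout and 11.1% and 14.1% in wild type.

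**Figure D2:**
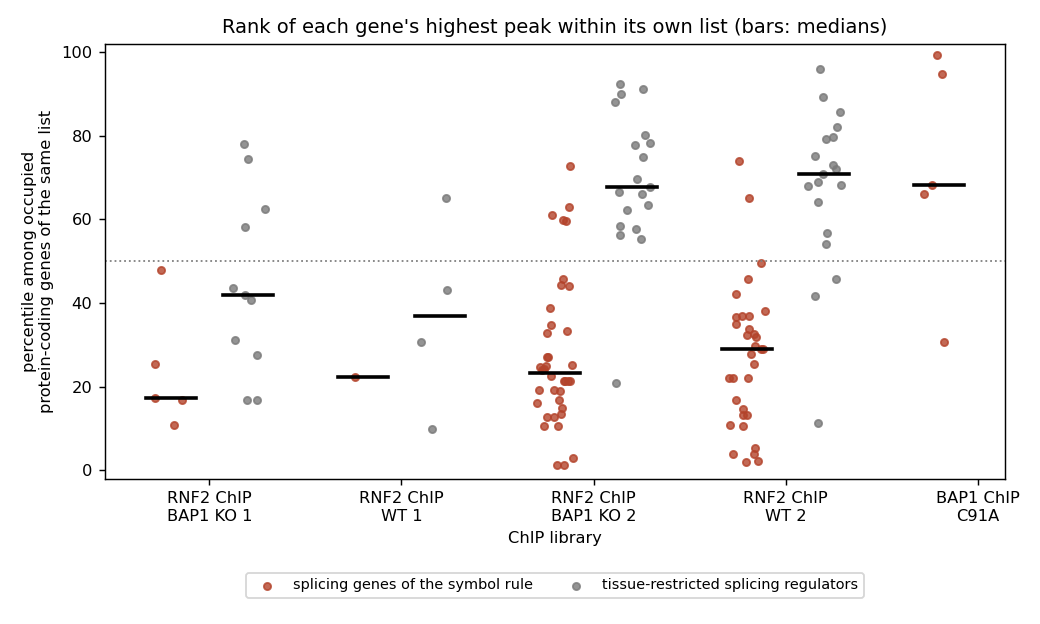
Percentile of each gene's highest peak among all occupied protein-coding genes of the same list (vertical axis, %), by ChIP library, for the splicing genes (red) and the tissue-restricted splicing regulators (grey); black bars are medians, the dotted line marks the list's own median, and horizontal scatter has no meaning. The splicing genes have median percentiles of 23.4 and 29.0 in the second BAP1 knockout and wild-type libraries, and the regulators 67.7 and 70.9.

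SR proteins bind exonic enhancers and recruit U1 and U2 to splice sites. Of 11 Srsf genes, 3 held RNF2 in the first and 9 in the second BAP1 knockout library (27.3% and 81.8%; all genes 23.2% and 57.7%). In wild type 0 and 10 did (0% and 90.9%; all genes 11.1% and 49.3%). This and the other role groups are small, and their counts are description only. Srsf12, an SR-related protein, had the highest values of the whole set, with fold enrichments of 5.33 and 12.63 in BAP1 knockout and 8.81 in the second wild-type library. Its peaks covered 838 and 1815 bp of the windows in BAP1 knockout, against 0 and 1228 bp in wild type. The summit of the second wild-type peak lay 112 bp downstream of the annotated start, and that of the second BAP1 knockout peak 124 bp downstream. At percentiles of 72.8 (BAP1 knockout) and 73.9 (wild type), Srsf12 was in the upper part of both second lists. Srsf9, a close relative of the prototype SR protein Srsf1, came next among the Srsf genes, at 8.19 in the second BAP1 knockout library and 6.27 in the second wild-type library, with no peak in either first library.

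Srsf6, an SR protein of the same family, had fold enrichments of 3.18 and 8.15 in BAP1 knockout, against 3.34 in the second wild-type library alone. The percentile in the second libraries was 59.7 for BAP1 knockout and 29.7 for wild type. Srsf1 stood low, at 3.56 and 2.54 in BAP1 knockout and 3.59 in the second wild-type library. In the second libraries Srsf1 had percentiles of 3.0 (BAP1 knockout) and 36.6 (wild type). Its 3 peaks overlapped at the start, with summits at 83 and -52 bp in BAP1 knockout and 4 bp in wild type. Srsf2, Srsf4, Srsf7, Srsf10 and Srsf11 held a peak in both second libraries, between 3.01 and 3.92 in BAP1 knockout and between 2.45 and 4.40 in wild type. Srsf3 was listed in the second wild-type library only (3.33), and Srsf5 in none.

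The U2 auxiliary factor reads the 3′ end of the intron. U2af2 binds the polypyrimidine tract, U2af1 the AG dinucleotide, and U2af1l4 is a paralog of U2af1. Each held RNF2 in both second libraries and in neither first, as did 24.6% of all genes. U2af2 had 5.51 in BAP1 knockout and 3.45 in wild type, in a window shared with Ccdc106. U2af1 had 4.88 in BAP1 knockout and 2.52 in wild type, which are percentiles of 38.9 and 5.2. U2af1l4, which shares its peaks with Psenen, had 3.45 in BAP1 knockout and 2.74 in wild type.

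SF3a and SF3b are the parts of the U2 snRNP that hold the branch point. Of their 9 genes, 6 held RNF2 in the second BAP1 knockout library (66.7%; all genes 57.7%). In the second wild-type library 3 did (33.3%; all genes 49.3%). Sf3a2 was the only splicing gene with RNF2 in the first wild-type library, at a fold enrichment of 3.23, and it had 3.62 in the second wild-type and 3.01 in the second BAP1 knockout library. The first BAP1 knockout library had its nearest peak 1987 bp from the gene, outside the window. The Sf3a2 peaks were wide, at 1270 bp in the second BAP1 knockout and 1300 bp in the second wild-type library, and they also lie at Plekhj1. Sf3a1 (3.80), Sf3a3 (3.44) and Sf3b5 (3.56) were listed in the second BAP1 knockout library and not in the second wild-type library. Sf3b2 had 4.34 in BAP1 knockout and 3.24 in wild type, but at the far end of the gene, with summits 22719 bp (BAP1 knockout) and 22378 bp (wild type) from its annotated start, and shared with Pacs1. Sf3b1, which clasps the branch helix, and Sf3b3 and Sf3b4 held no RNF2 peak in any library.

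The Snrp genes encode the Sm ring (Snrpb, Snrpd1, Snrpd2, Snrpd3, Snrpe, Snrpf and Snrpg), U1 proteins (Snrpa and Snrpc) and U2 proteins (Snrpa1 and Snrpb2). Of these 11, 1 held RNF2 in the first and 9 in the second BAP1 knockout library (9.09% and 81.8%; all genes 23.2% and 57.7%). In wild type 0 and 8 did (0% and 72.7%; all genes 11.1% and 49.3%). Snrpd2 was the highest of these genes in the second BAP1 knockout list, with a fold enrichment of 8.52 (percentile 61.0). In the second wild-type list it had 2.91 (percentile 16.9). The first BAP1 knockout library listed it at 2.90, and the first wild-type library did not. All Snrpd2 peaks were shared with Qpctl, and the summit of the highest lay at -1158 bp from the Snrpd2 start, where a minus sign means upstream. The other 8 genes of the second BAP1 knockout list lay between 3.19 and 4.40, with Snrpd1 highest. Snrpe was listed in the second wild-type library alone (3.12), and Snrpa in none.

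Among the Prpf proteins of the tri-snRNP, Prpf8, the central scaffold of the U5 snRNP, had an RNF2 peak only beyond its 3′ end. That peak, at 3.44 in BAP1 knockout and 2.74 in wild type, lay 23899 bp (BAP1 knockout) and 23652 bp (wild type) from the Prpf8 start and was shared with Rilp. Prpf6, which bridges U5 and U4/U6, was listed in the second BAP1 knockout library (4.51, shared with Samd10) and not in wild type, where the nearest peak was 1924 bp away. Prpf3 had 5.46 in BAP1 knockout and 2.30 in wild type, percentiles of 44.1 and 2.3. Prpf4, Prpf31 and Prpf38a held none. All 5 of the other Prpf genes were occupied in both second libraries, where all genes gave 57.7% in BAP1 knockout and 49.3% in wild type. Prpf40b led them, at 3.20 and 9.15 in BAP1 knockout and 3.43 in the second wild-type library. Its peaks covered 1809 bp of the windows in the second BAP1 knockout library and 427 bp in the second wild-type library. Prpf39 had 5.70 in BAP1 knockout and 4.12 in wild type, at percentiles of 45.8 and 45.7.

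The Prp19 complex activates the assembled spliceosome. Its ubiquitin ligase Prpf19 had weak RNF2 peaks, at 2.34 in the second BAP1 knockout and 3.33 in the second wild-type library. Bcas2, a subunit of the complex, was listed in the second wild-type library only (2.80), and Cdc5l, another subunit, in none. Cwc22, which brings the exon junction protein Eif4a3 to the spliceosome, held neither RNF2 nor BAP1. By role, BAP1 peaks lay at 2 of 5 Prp19-related genes, 2 of 3 exon junction or second-step genes and 1 of 11 Snrp genes, and at no other member. With 3.74% of all genes occupied and groups this small, the roles without a peak are not set apart by it.

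**Figure D3:**
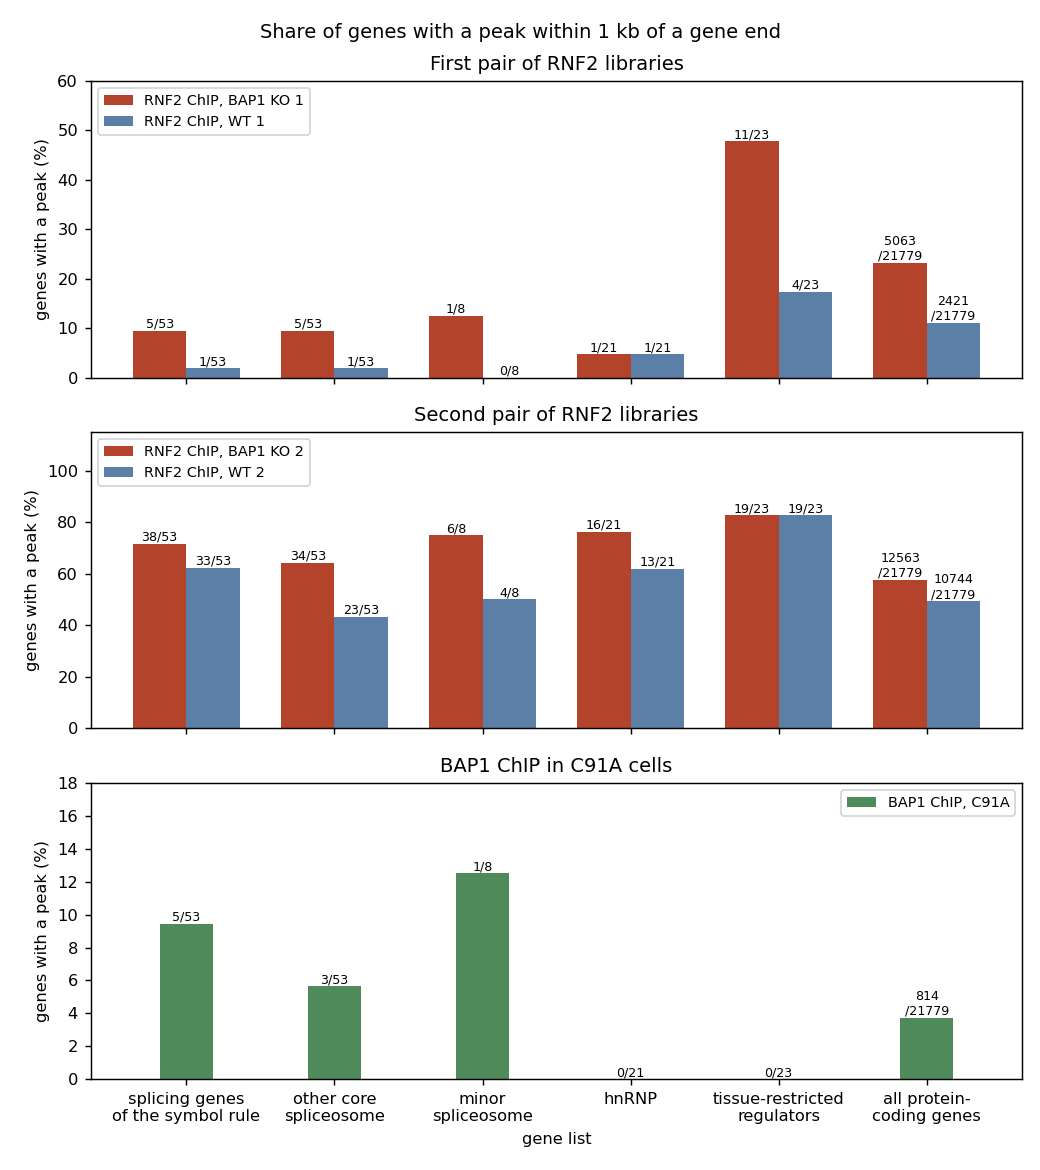
Share of genes with a peak within 1 kb of a gene end (vertical axis, %; counts above the bars), for the first pair of RNF2 libraries, the second pair, and BAP1 ChIP in C91A cells, in the splicing genes, the other lists of splicing genes and all protein-coding genes; BAP1 knockout stands left of wild type. In the first pair the splicing genes (5 and 1 of 53) lie below all genes, and in the second pair (38 and 33 of 53) above them; each bar is 1 library.

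Within pairs, more splicing genes had a peak in BAP1 knockout alone than in wild type alone with the lists as deposited, which are longer for BAP1 knockout. With the 4 lists cut to equal length, 0 genes had a peak in BAP1 knockout alone in either pair (4.38% and 2.95% of all genes). In wild type alone 1 gene was left in each pair (1.98% and 1.93% of all genes), Sf3a2 in the first and Srsf12 in the second. The first wild-type list is the shortest and is not cut, and counts this small give no direction. With the full lists, the first pair had 5 genes in BAP1 knockout alone, Srsf12, Srsf1, Prpf40b, Srsf6 and Snrpd2 (9.43%), against 12.5% of all genes. Sf3a2 was the 1 gene with a peak in wild type alone (1.89%), against 0.349% of all genes. In the second pair 8 genes had a peak in BAP1 knockout alone (15.1%), against 9.67% of all genes. They were Prpf6, Sf3a1, Syf2, Sf3b5, Sf3a3, Slu7, Snrpc and Snrpb2, from 4.51 down to 3.19. Bcas2, Snrpe and Srsf3 had a peak in wild type alone (5.66%), against 1.32% of all genes. The genes of the 2 pairs did not overlap. Overlap was rare over all genes too. Of 2718 genes with a peak in BAP1 knockout alone in the first pair and 2107 in the second, 36 were in both groups. All 5 genes of the first pair were also occupied in the second wild-type library, and none of the 8 of the second pair was listed in a first library. No splicing gene therefore had a peak in both BAP1 knockout libraries and neither wild-type library, a pattern found at 0.165% of all genes. The mirror pattern was found at none of all genes (0%). Both BAP1 knockout libraries held RNF2 at 5 members, against 23.2% of all genes, and both wild-type libraries at 1, Sf3a2, against 11.1%. A two-sided exact permutation test of 2 libraries against 2 cannot go below p = 0.333, and no test of the genotypes was made.

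All of the peaks that separate the second pair stood below the median of their list. So did most occupied splicing genes, 33 of 38 in BAP1 knockout and 31 of 33 in wild type. The same share was not computed for all genes that separate the pair. Of the 8 genes, Prpf6 had the highest fold enrichment and stood at the 34.7th percentile of its list, and Snrpb2, the lowest, at the 13.5th. The wild-type peaks at Srsf3, Snrpe and Bcas2 had percentiles of 29.0, 22.1 and 13.1. The nearest peak of the other genotype was 1924 bp away at Prpf6, 4358 bp at Sf3a1, 4372 bp at Sf3a3 and 4647 bp at Snrpc. It was 12711 bp away at Sf3b5 and 159785 bp at Snrpb2. At Bcas2, Srsf3 and Snrpe the nearest BAP1 knockout peak was 3752, 7927 and 85519 bp away. These calls move with the threshold. At a −log10 q of at least 5 in every list, 15 splicing genes had a peak in the second BAP1 knockout library alone within that pair (28.3%; all genes 13%). Snrpd2 then had one in both BAP1 knockout and neither wild-type library. Its highest −log10 q in the second wild-type library was 4.50, just under that cutoff. The share of all genes with this pattern at that cutoff was not computed.

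At the 30 splicing genes occupied in both second libraries, the peaks covered more of the windows in BAP1 knockout than in wild type. The median covered length was 711.5 bp in BAP1 knockout and 461 bp in wild type, and it was longer in BAP1 knockout at 24 genes and shorter at 6. The share of 80% equals that of all 10456 genes occupied in both, also 80%, where the medians were 1326 bp in BAP1 knockout and 850 bp in wild type. The median difference per gene was 219.5 bp for the splicing genes and 260 bp for all genes. Splicing genes therefore had shorter RNF2 cover in both genotypes, with a difference between genotypes close to that of genes in general. Prpf40b, Snrpd2, Srsf9, U2af2 and Srsf12 had the longest cover in BAP1 knockout, from 1629 to 1815 bp. Srsf10 (525 bp in BAP1 knockout and 870 bp in wild type) was among the 6 that went the other way.

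**Figure D4:**
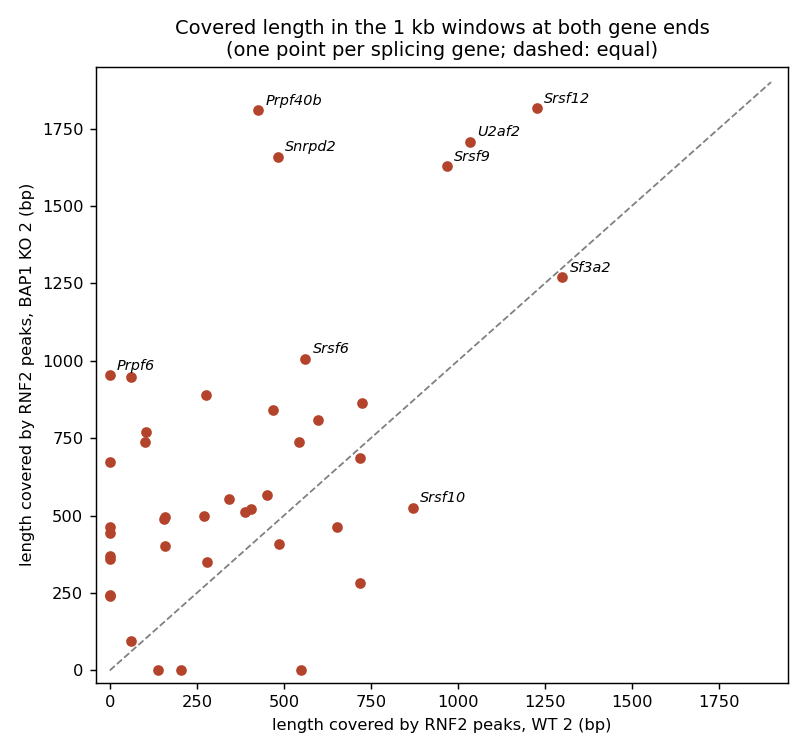
Length covered by RNF2 peaks in the windows of 1 kb around both gene ends, in the second BAP1 knockout library (vertical axis, bp) against the second wild-type library (horizontal axis, bp); each point is a splicing gene and the dashed line marks equal lengths. Of the 30 genes occupied in both, 24 lie above the line and 6 below; points on the axes are genes occupied in 1 library only.

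Since peaks were joined to genes within 1 kb of either end, nearness to an end is partly fixed by the window, but not which end. The RefSeq promoter table gives a start for 45 of the 53 genes and none for the other 8. In the second BAP1 knockout library 30 of 32 occupied genes with a start had a peak within 1 kb of it (93.8%; 95.2% of all occupied genes with a start), and the highest peak's summit lay at a median distance of 219 bp. In the second wild-type library these were 27 of 29 genes (93.1%; all genes 94.2%), at a median of 230 bp. The splicing genes thus lay at starts about as often as occupied genes in general. The exceptions in both were Prpf8 and Sf3b2. In the first BAP1 knockout library the 5 summits lay farther out, at a median of 798 bp, 4 of them upstream. The 3 BAP1 summits with a start lay within 90 bp of it. Several peaks stand between neighbouring genes, and 14 of the 38 occupied genes in the second BAP1 knockout library, and 12 of the 33 in wild type, shared a peak with another gene. Such a peak cannot be assigned to either gene from these lists.

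**Figure D5:**
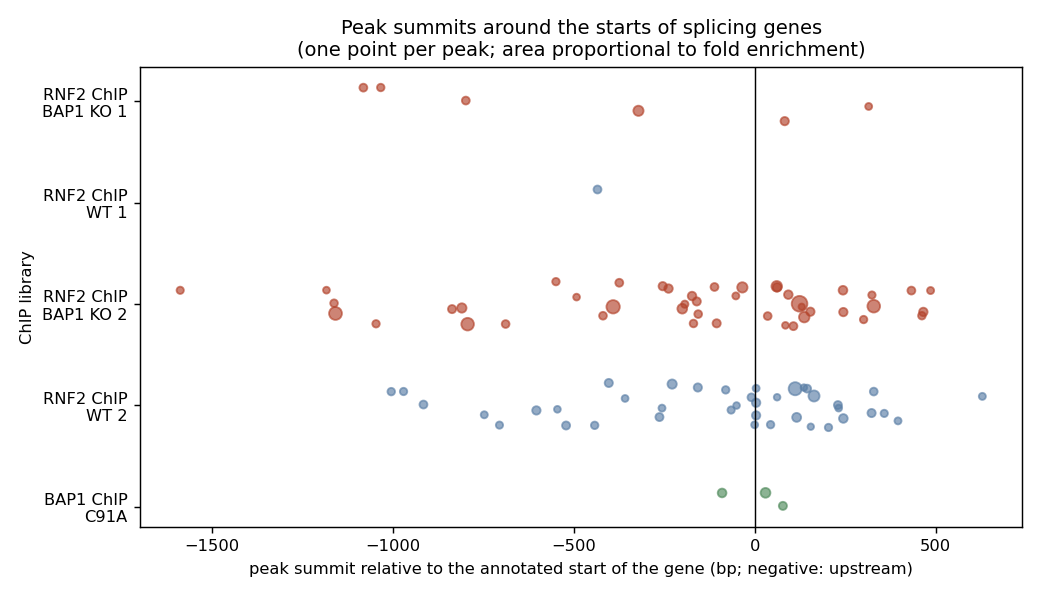
Position of each peak summit relative to the annotated start of its splicing gene (horizontal axis, bp, negative upstream), by ChIP library; each point is a peak at a gene with a RefSeq start, its area grows with fold enrichment, and vertical scatter has no meaning. Peaks over 2 kb from the start are not drawn. Most summits of the second libraries lie within 500 bp of the start, and the 3 BAP1 summits within 90 bp.

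The promoters of the set varied in composition, with a median CG frequency above that of all genes. Over 54 promoters of 45 genes the observed over expected frequency of CG had a median of 0.92 and ran from 0.00 to 1.29, against a median of 0.57 over 21263 promoters of 17492 protein-coding genes. The median GC content was 59%, from 42% to 78.3%, against 56.3%. Over all genes with a BAP1 peak the medians were 0.79 for CG and 61% for GC. The letters CCGGAAG, searched on both strands, were found at 20 of the 45 genes (44.4%), against 12.9% of all genes with a promoter and 26.4% of those with a BAP1 peak. By promoter the shares were 42.6% for splicing genes and 11.6% for all. The other letters searched were rarer. TGACGTCA (CREB) was found at 4 splicing genes (8.89%, all genes 2.54%), GCGCATGC (NRF1) at 3 (6.67%, all 3.94%), AAGATGGC (YY1) at 2 (4.44%, all 3.57%), GTAAACA (forkhead) at 2 (4.44%, all 3.45%) and ACTACAATT (ZNF143) at 1, Cwc22 (2.22%, all 0.577%). Several of these words hold a CG, and CG frequency also differs between the sets. Whether it bears on the shares was not tested, nor was any part of the difference. A match is a stretch of letters and not a binding site.

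Other lists of splicing genes were set beside the symbol rule. The 53 further core spliceosome genes held RNF2 at 5 and 34 in BAP1 knockout and at 1 and 23 in wild type. These are 9.43% and 64.2% in BAP1 knockout (all genes 23.2% and 57.7%) and 1.89% and 43.4% in wild type (all genes 11.1% and 49.3%). In the second pair, 12 of them (22.6%; all genes 9.67%) had a peak in BAP1 knockout alone and 1, Bud31, in wild type alone (1.89%; all genes 1.32%). BAP1 lay at 3, Lsm7, Dhx38 and Cwc27 (5.66%; all genes 3.74%). Lsm7, of the ring around U6 snRNA, reached a BAP1 fold enrichment of 5.52 (percentile 98.3), with RNF2 at 3.05 and 9.20 in BAP1 knockout and 5.89 in the second wild-type library. Srrm2 was the 1 core gene with RNF2 in both BAP1 knockout and neither wild-type library. Of 8 minor spliceosome genes, 6 held RNF2 in the second BAP1 knockout (75%) and 4 in the second wild-type library (50%). Zcrb1 also held BAP1 (3.83). Of 21 hnRNP genes the RNF2 counts were 16 (76.2%) and 13 (61.9%), with BAP1 at none. All genes gave 57.7% and 49.3% in these libraries. With 3.74% of all genes holding BAP1, its absence does not set so short a list apart.

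Regulators of alternative splicing with restricted tissues ranked higher in the RNF2 lists than the splicing genes of the symbol rule. Of 23 such genes, 11 and 19 held RNF2 in BAP1 knockout (47.8% and 82.6%) and 4 and 19 in wild type (17.4% and 82.6%), with BAP1 at none. All genes gave 23.2% and 57.7% in BAP1 knockout and 11.1% and 49.3% in wild type. The BAP1 share of all genes was 3.74%, so its absence does not set a list of this length apart. The regulators' median fold enrichment was 10.69 in the second BAP1 knockout library (percentile 67.7) and 7.68 in the second wild-type library (percentile 70.9). In the first libraries their median percentiles were 42.0 (BAP1 knockout) and 36.9 (wild type), below the list medians. The splicing genes had 17.4 and 22.3 there. Celf3, Ptbp2, Rbfox2 and Rbm20 held no RNF2 peak in any library (17.4%, against 41% of all genes). The 2 examples that follow are among the highest. Celf4, a neuronal regulator, had 6.66 and 20.51 in BAP1 knockout and 5.65 and 19.81 in wild type. Esrp1, an epithelial regulator, had 11.45 and 19.55 in BAP1 knockout and 14.61 in the second wild-type library. No regulator was listed in the second BAP1 knockout library without the second wild-type library or the reverse. Within the symbol rule, only Srsf12 and Srsf9 stood above the list median in both second libraries. The lists share no gene, and the difference between them was not tested.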

How the data were processed

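The deposited files are MACS2 peak lists. Per the file headers, each ChIP library was called against its own input, and the cutoff was a q-value of 0.05. The submitters' processing notes name GSNAP, without a version, and the build GRCm38 (mm10). The headers name MACS2 2.1.0.20150420 for the first RNF2 libraries and both BAP1 libraries, and 2.1.1.20160309 for the second RNF2 libraries and RNF2 knockout. Fragment lengths per the file headers were 323 and 297 bp in the first BAP1 knockout and wild-type RNF2 libraries, 100 bp in the second ones and RNF2 knockout, 50 bp in C91A cells (the tag length) and 147 bp in the BAP1 knockout library of BAP1 ChIP. The share of redundant tags was 0.25 to 0.32 in the libraries with 100 bp and 0.00 in the others. The deposited columns are pileup signal at the summit, −log10 of the p-value and q-value, fold enrichment (a ratio) and peak length, all the authors' values. Pileup signal was not compared between libraries.

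Peaks on the autosomes and sex chromosomes were joined to 21779 RefSeq protein-coding genes of GRCm38.p6, without 108 entries that the gene table places below 3 Mb, taken to lie on scaffolds (Y apart). Starts and promoter sequences came from a RefSeq table of the same build. Analyses used Python 3.11.15 with pandas 2.3.3 and numpy 2.4.6, and the overlap code was tested on simulated peaks. Counts of genes per list were set beside all protein-coding genes, with no test. Alternatives were other windows, summits in place of overlap, stricter q-values, equal list lengths and leaving out each RNF2 library. The genes named are those with a BAP1 peak, with a peak in a first RNF2 library, with a peak in 1 genotype only, or with no RNF2 peak, and further members by role. The members, lists and motifs were chosen with earlier results of these data known. FLAG ChIP, which the protocols mention, was not analysed here.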

Additional observations from a re-analysis of the deposited data

How the results depend on the processing

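Of 137 counts and percentiles recomputed under other settings, 94 stayed close to the reported value (within 1.5 times for counts) and 43 moved; the cause was not tested beyond what each setting removes by construction. Windows of 500 bp left 3 splicing genes with RNF2 in the first BAP1 knockout library, in both BAP1 knockout libraries and in BAP1 knockout alone within the first pair. Windows of 2.5 kb gave 8, 8 and, for wild type alone in the first pair, 0, since Sf3a2 then had a peak in both. Windows at annotated starts alone left 3 BAP1 genes, 2 of them without wild-type RNF2, since Slu7 and Prpf18 have no start in the table. Summits in place of overlap gave 5 genes in wild type alone in the second pair. At a −log10 q of at least 5, the second pair had 15 genes in BAP1 knockout alone, all 4 libraries gave 1 gene with RNF2 in BAP1 knockout and not wild type, BAP1 lay at 2 genes, both without wild-type RNF2, and median percentiles fell to 9.9 and 16.6 in BAP1 knockout and 10.0 and 18.1 in wild type. At 10 or more, RNF2 lay at 1 and 13 genes in BAP1 knockout (17.2% and 42.1% of all genes) and 0 and 6 in wild type (6.71% and 29.1% of all genes), at 1 in both BAP1 knockout and 0 in both wild-type libraries. The first pair then gave 1 in BAP1 knockout alone and 0 in wild type alone, BAP1 lay at 1 gene, without wild-type RNF2, and median percentiles were 29.7 in the first BAP1 knockout and 11.1 in the second wild-type library. With RNF2 lists cut to equal length, the counts were 0 and 0 in BAP1 knockout, 1 in the second wild-type library, 0 in both BAP1 knockout and 0 in both wild-type libraries; BAP1 knockout alone gave 0 in each pair and wild type alone 1 in the second. Leaving out 1 RNF2 library at a time, genes in BAP1 knockout and not wild type ranged from 0 to 8, the mirror case from 0 to 3, RNF2 in BAP1 knockout from 5 to 38 and in wild type from 1 to 33. The first of these was 8 without the first BAP1 knockout and 5 without the second wild-type library. RNF2 in BAP1 knockout was 38 without the first library, in wild type 33. For 11 peaks of named genes under 8 settings each, the peak was still listed in 67 of 88 cases.

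No paired analysis was possible because the peak lists hold no counts per gene for a model with a replicate block, and the results come from no test; within each pair, genes were only counted side by side. Fold enrichment has no replicate error here, and the first RNF2 libraries list few of the weak peaks that most splicing genes have in the second; depth, caller version and fragment length cannot be told apart here.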
